A study of Homo sapiens with 12 samples.

Results

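Mucins are the heavily O-glycosylated proteins that coat the bile ducts and other mucous surfaces, and 10 of their genes were followed here among the 60651 genes counted: MUC1, MUC2, MUC4, MUC5AC, MUC5B, MUC6, MUC13, MUC16, MUC20 and MUC21. They were taken by symbol, matched to the Ensembl gene identifiers of the count table, and all 10 were found once. RNA was sequenced from 12 libraries of 2 established human cholangiocarcinoma cell lines, EGI-1 and HUCCT1, neither of which carried an engineered change. EGI-1 cells had received DMSO (vehicle), decitabine at 0.5 µM, talazoparib at 200 nM or both drugs. HUCCT1 cells had received DMSO or decitabine at 1 µM. Every arm held 2 libraries, harvested 72 h after drug addition. Decitabine is a cytidine analogue that traps DNA methyltransferases, and talazoparib inhibits poly(ADP-ribose) polymerase. The comparisons ask how each drug, and their joint use, moved the mucin transcripts in each line.

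Secreted gel-forming mucins (MUC2, MUC5AC, MUC5B and MUC6) assemble through disulfide bonds into the polymers that give mucus its viscosity, and their genes lie side by side on chromosome 11. Membrane-bound mucins (MUC1, MUC4, MUC13, MUC16, MUC20 and MUC21) stay on the apical cell surface, where their cytoplasmic tails can take part in signalling. In the biliary tree MUC5B is a mucin of the normal large ducts, MUC5AC and MUC6 are gastric-type mucins, MUC2 is the intestinal goblet-cell mucin, and MUC16 carries the CA125 tumour antigen.

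The libraries held 23139065 to 33181930 counts in EGI-1 and 32519985 to 34965627 in HUCCT1. All 10 biliary epithelial markers on a list that included KRT7, KRT19 and EPCAM reached 1 CPM (counts per 1000000 of the TMM-scaled library total) or more in every library. EGI-1 combination replicate 2 stood apart in its leukocyte transcripts. It held 12.5 CPM of PTPRC and 4.87 CPM of CD3E, leukocyte genes whose highest levels elsewhere in EGI-1 were 0.200 and 0.115 CPM, and its summed leukocyte markers reached 24.4 CPM against 2.77 to 4.93 CPM in the other EGI-1 libraries. The member values and list counts for the combination against vehicle are therefore given with and without it. EGI-1 decitabine replicate 2 also differed from replicate 1, with 35.1 against 18.8 CPM of MUC1. The labels do not say whether 2 libraries of an arm came from separate cultures, so the p-values measure only the spread between these libraries. The lines also differed in decitabine dose, culture medium and a tag in the library names (L3 for HUCCT1, L4 for EGI-1), whose meaning the labels do not give, so line, dose, medium and tag cannot be told apart.

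On GRCh38 the gel-forming genes occupy a stretch of chromosome 11 in the order MUC6 (chr11:1012823-1036718, minus strand), MUC2 (chr11:1074875-1110511), MUC5AC (chr11:1157953-1201138) and MUC5B (chr11:1223066-1262172), the last 3 on the plus strand. MUC13 (chr3:124905442-124953819), MUC4 (chr3:195746765-195811973) and MUC20 (chr3:195720884-195741123) lie on chromosome 3, MUC1 on chr1:155185824-155192916, MUC16 on chr19:8848844-9010390 and MUC21 on chr6:30983718-30989903. Of these, MUC20 and MUC21 lie on the plus strand and the others on the minus strand. The gene bodies are annotated by GENCODE 44, and the counts cover their exons. MUC20 shares 27.1% of its exon bases with the lncRNA MUC20-OT1 on the same strand, MUC5B shares 2.33% with the antisense MUC5B-AS1, and MUC1 shares 2.00% with a protein-coding gene model on its own strand that had 0 counts in all 12 libraries. How the counting used strand and reads that map to several places was not given in the sources used here, so counts at these overlaps, and in repeat exons alike between mucins, are uncertain.

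Because decitabine blocks the upkeep of methylation at CpG sites, the sequences just upstream of the members are shown for those with an entry in the RefSeq promoter table (GRCh38.p14), which are 5 of the 10. Each run gives the 250 bases before the annotated start, 5′ to 3′ on the gene's strand, with every CG dinucleotide in capitals. MUC1, MUC2, MUC4 and MUC13 are 4 of the 6 members that were higher after decitabine in HUCCT1, and MUC16 is a member that was not. The MUC1 window is chr1:155192916-155193165, the MUC2 window chr11:1074624-1074873, the MUC4 window chr3:195811930-195812179, the MUC13 window chr3:124934752-124935001 and the MUC16 window chr19:9010410-9010659. The MUC1 and MUC4 windows overlap the start of the GENCODE gene body in part, and the MUC13 window lies wholly inside it, since GENCODE places these starts further upstream.
MUC1: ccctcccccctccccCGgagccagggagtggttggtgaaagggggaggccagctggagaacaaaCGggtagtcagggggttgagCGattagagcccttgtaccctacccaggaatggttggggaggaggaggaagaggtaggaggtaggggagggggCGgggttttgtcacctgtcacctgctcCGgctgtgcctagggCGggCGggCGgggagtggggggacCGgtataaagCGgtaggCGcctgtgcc
MUC2: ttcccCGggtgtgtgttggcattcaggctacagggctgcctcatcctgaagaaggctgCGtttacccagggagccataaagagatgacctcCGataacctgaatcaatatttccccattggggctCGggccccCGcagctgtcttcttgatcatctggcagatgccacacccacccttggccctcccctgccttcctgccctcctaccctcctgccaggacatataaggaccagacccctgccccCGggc
MUC4: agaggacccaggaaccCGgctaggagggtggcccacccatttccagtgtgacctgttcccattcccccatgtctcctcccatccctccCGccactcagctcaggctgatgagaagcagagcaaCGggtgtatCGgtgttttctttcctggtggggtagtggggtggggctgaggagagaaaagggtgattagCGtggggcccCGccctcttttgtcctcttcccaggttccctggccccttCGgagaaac
MUC13: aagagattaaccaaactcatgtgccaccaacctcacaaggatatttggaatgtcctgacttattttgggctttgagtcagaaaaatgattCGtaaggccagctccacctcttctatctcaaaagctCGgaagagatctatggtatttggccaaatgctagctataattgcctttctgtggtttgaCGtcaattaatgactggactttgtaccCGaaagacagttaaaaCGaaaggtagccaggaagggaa
MUC16: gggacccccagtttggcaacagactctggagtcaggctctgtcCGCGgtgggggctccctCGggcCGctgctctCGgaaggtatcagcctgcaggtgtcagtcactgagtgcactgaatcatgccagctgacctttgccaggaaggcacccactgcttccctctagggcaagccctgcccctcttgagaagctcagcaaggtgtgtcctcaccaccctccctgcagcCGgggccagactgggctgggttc
The MUC1 window held 11 CG dinucleotides, the median over 35116 RefSeq promoters, whose quartiles were 3 and 23. The other windows held fewer, with 7 in MUC4, 6 each in MUC2 and MUC16, and 5 in MUC13. Motifs were searched on both strands. The GC box GGGCGG, present in 42.6% of all promoters, occurred at 4 positions in MUC1 and 1 in MUC4. TATAAA, present in 10.7% of promoters, occurred once in the MUC1 window only. TGANTCA, with any base at N, is looser than the core that AP-1 factors bind, which has C or G there. It was in 6.57% of promoters and occurred once each in MUC2, MUC13 and MUC16. The match was TGAATCA in MUC2 and MUC16 and TGAGTCA in MUC13, so only the MUC13 match had that core. CCAAT, in 32.0% of promoters, occurred once in MUC2. MUC16, which was not called after decitabine, and MUC2, which was, had the same number of CG dinucleotides in these windows. Methylation itself was not measured, and whether the CG number bears on the calls after decitabine was not tested.

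Among the 10 mucin genes followed, MUC5AC, MUC1 and MUC16 were the 3 most abundant per kb in the vehicle arms of both lines, in a different order. Levels between genes are compared per kilobase of merged exon, as CPM per kb. In vehicle HUCCT1 the order was led by MUC5AC at 38.2 ± 2.98 CPM per kb (SD, n = 2), followed by MUC1 at 13.3 ± 1.19 and MUC16 at 9.43 ± 0.352. MUC5AC ranked 1138 among the 35032 genes with a count in those libraries. Far below them came MUC5B at 0.142 ± 0.0154 and MUC13 at 0.104 ± 0.0131 CPM per kb. MUC6 at 0.0254 ± 0.0304 and MUC4 at 0.0244 ± 0.00782 CPM per kb could not be ordered, because the spread of MUC6 exceeded its mean, and MUC2 stood at 0.00912 ± 0.00551.

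In vehicle EGI-1 the order was instead led by MUC1 at 7.61 ± 0.998 CPM per kb, then MUC16 at 3.68 ± 0.353 and MUC5AC at 1.35 ± 0.0365. MUC4 followed at 0.582 ± 0.147 CPM per kb. MUC5B at 0.255 ± 0.0308 and MUC13 at 0.240 ± 0.0192 CPM per kb were within their spreads of each other. MUC2 was at 0.00673 ± 0.00148 CPM per kb.

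**Figure D1:**
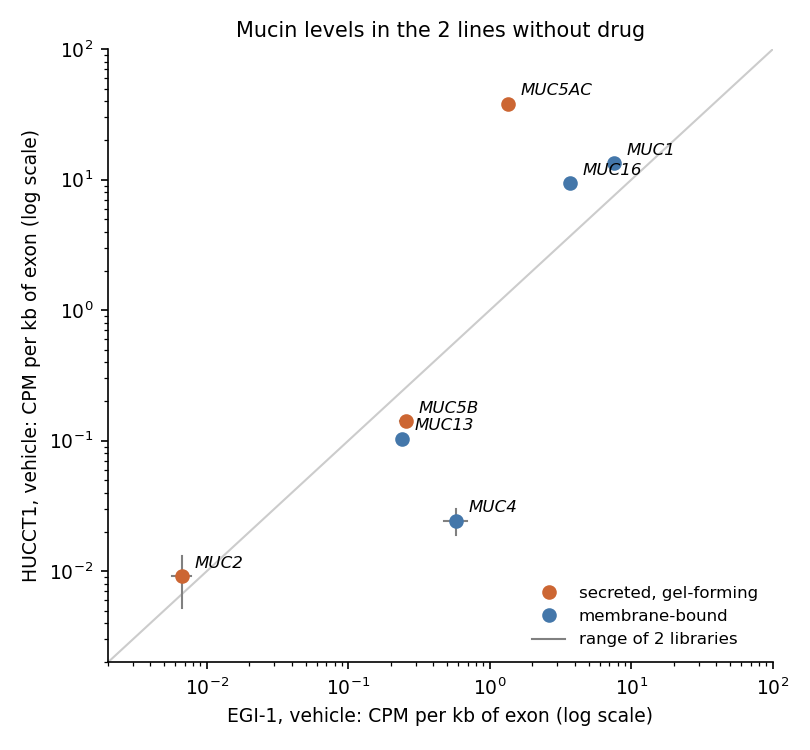
Each point is the mean CPM per kb of exon of 1 mucin gene in vehicle EGI-1 (horizontal) and vehicle HUCCT1 (vertical), both on log scales, with grey bars for the range of the 2 libraries and the diagonal marking equal levels. MUC5AC lies far above the diagonal and MUC4 far below it. MUC6, MUC20 and MUC21 are not drawn because EGI-1 vehicle libraries held 0 or 1 counts of them.

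The test between the vehicle arms called 6 of the 10 members, or 6 of the 8 tested, 3 higher and 3 lower in HUCCT1, where 55.8% of the 25096 genes tested were called. MUC5AC stood at 629 and 703 CPM in HUCCT1 against 24.0 and 23.1 CPM in EGI-1, a 28.3-fold difference (log2 4.82 ± 0.24 SE, adjusted p = 6.61e-07). MUC16, the largest membrane mucin, stood at 406 and 428 against 151 and 173 CPM (log2 1.36 ± 0.10, adjusted p = 2.02e-10). MUC1 was also higher, at 30.0 and 34.1 against 16.6 and 19.97 CPM (log2 0.81 ± 0.26, adjusted p = 0.0304). None of these 3 genes had overlapping libraries between the lines.

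MUC4, a large membrane mucin that binds ERBB2, ran the other way. It stood at 0.396 and 0.628 CPM in HUCCT1 against 10.0 and 14.4 CPM in EGI-1, 23.7-fold lower (log2 -4.57 ± 0.27, adjusted p = 1.13e-11). MUC13 (0.396 and 0.331 against 0.886 and 0.792 CPM, log2 -1.20 ± 0.39, adjusted p = 0.0131) and MUC5B (2.44 and 2.84 against 4.33 and 5.15 CPM, log2 -0.84 ± 0.25, adjusted p = 0.00608) were lower in HUCCT1 as well. MUC2 gave 5 and 2 counts against 3 and 2, with a log2 difference of 0.41 and a 95% confidence interval of -1.15 to 1.97. The MUC1 call was the least firm. It was lost on leaving out any of 10 libraries in turn, each of the 4 vehicle libraries included, at adjusted p up to 0.165. MUC13 lost its call without HUCCT1 vehicle replicate 2 (adjusted p = 0.0808) or EGI-1 vehicle replicate 1 (adjusted p = 0.0667), and MUC5B without HUCCT1 vehicle replicate 1 (adjusted p = 0.0601) or EGI-1 vehicle replicate 2 (adjusted p = 0.062).

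MUC20, MUC21 and MUC6 were at or near 0. MUC21 had 0 counts in all 12 libraries, which allows up to 0.0859 to 0.123 CPM by library on a floor of 3 counts. MUC20 had 0 counts in 9 libraries and at most 2 in the others. Its pseudogene MUC20P1 had 24 to 43 counts in EGI-1 and 47 to 84 in HUCCT1, and MUC20-OT1 had 4 to 10 counts, and how the counting split reads among these loci is uncertain. MUC6 had 0 to 2 counts in every EGI-1 library, and in HUCCT1 it had 12 and 14 counts in replicate 1 of the vehicle and decitabine arms against 1 and 0 in replicate 2. The higher values were those of replicate 1 in both arms, and MUC6 gave no usable difference in either line. These limits cover counting error only.

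Decitabine moved most of the detected mucins in HUCCT1. MUC2, MUC13, MUC1, MUC4, MUC5AC and MUC5B rose, 6 of the 10 members and 6 of the 8 that passed the filter on low counts, and none fell. Of 22479 genes tested, 33.5% were called, 19.6% higher and 13.9% lower. MUC2, MUC13 and MUC6 would not have passed the filter without the treated libraries, so the counts of MUC2 and MUC13 within the 8 are not independent of their rise. The median log2 fold change was 0.87 over the 5 tested members other than these and 0.00 over all genes tested.

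MUC2, the gel-former of intestinal goblet cells, had 5 and 2 counts in the vehicle libraries (0.165 and 0.0661 CPM) and 127 and 132 counts after decitabine (3.97 and 4.46 CPM). The fitted difference was log2 5.13 ± 0.40 (adjusted p = 1.51e-10), a 34.99-fold rise that rests on 7 vehicle counts. It was log2 5.89 without vehicle replicate 1 and 4.61 without vehicle replicate 2. MUC5AC, the most abundant of the 10 transcripts per kb in this line, stood at 629 and 703 CPM in vehicle and 1159 and 1298 CPM after decitabine. Its rise was 1.83-fold (log2 0.87 ± 0.11, adjusted p = 3.58e-07), and both treated libraries lay above both vehicle libraries. Its level after treatment was 70.4 ± 5.65 CPM per kb, against 0.333 ± 0.0275 CPM per kb for MUC2. The gel-former with the largest relative rise thus stayed far below MUC5AC in level.

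MUC5B, the neighbour of MUC5AC, stood at 2.44 and 2.84 CPM in vehicle and 4.16 and 5.58 CPM after decitabine (log2 0.87 ± 0.23, adjusted p = 0.00423). The libraries did not overlap, but the call was lost without HUCCT1 decitabine replicate 2, where the log2 fold change was 0.65 and the adjusted p 0.0833. Summed over the 4 gel-forming genes, the vehicle libraries held 632 and 706 CPM and the treated libraries 1167 and 1308 CPM, nearly all of it MUC5AC.

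Among the membrane mucins, MUC1 carried the largest rise in counts. It went from 30.0 and 34.1 CPM to 131 and 134 CPM, 4.11-fold higher (log2 2.04 ± 0.11, adjusted p = 2.98e-13). MUC13, a short membrane mucin of intestinal and gastric epithelium, went from 0.396 and 0.331 CPM to 4.37 and 4.19 CPM, 11.6-fold higher (log2 3.54 ± 0.31, adjusted p = 1.70e-09). MUC4 went from 0.396 and 0.628 CPM to 1.97 and 1.59 CPM (log2 1.78 ± 0.37, adjusted p = 4.69e-04). MUC4 after decitabine thus remained below its 10.0 to 17.7 CPM in EGI-1, while MUC13 passed the 0.544 to 1.78 CPM seen in EGI-1. MUC1, MUC2, MUC4, MUC5AC and MUC13 kept their calls in every alternative tried for this comparison, leaving out each library included.

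MUC16 did not follow. It stood at 406 and 428 CPM in vehicle HUCCT1 and 429 and 339 CPM after decitabine, and the treated libraries spanned the vehicle range. The log2 difference was -0.13 with a 95% confidence interval of -0.36 to 0.11 (adjusted p = 0.44). A rise of the size seen for MUC5B lies outside that interval.

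**Figure D2:**
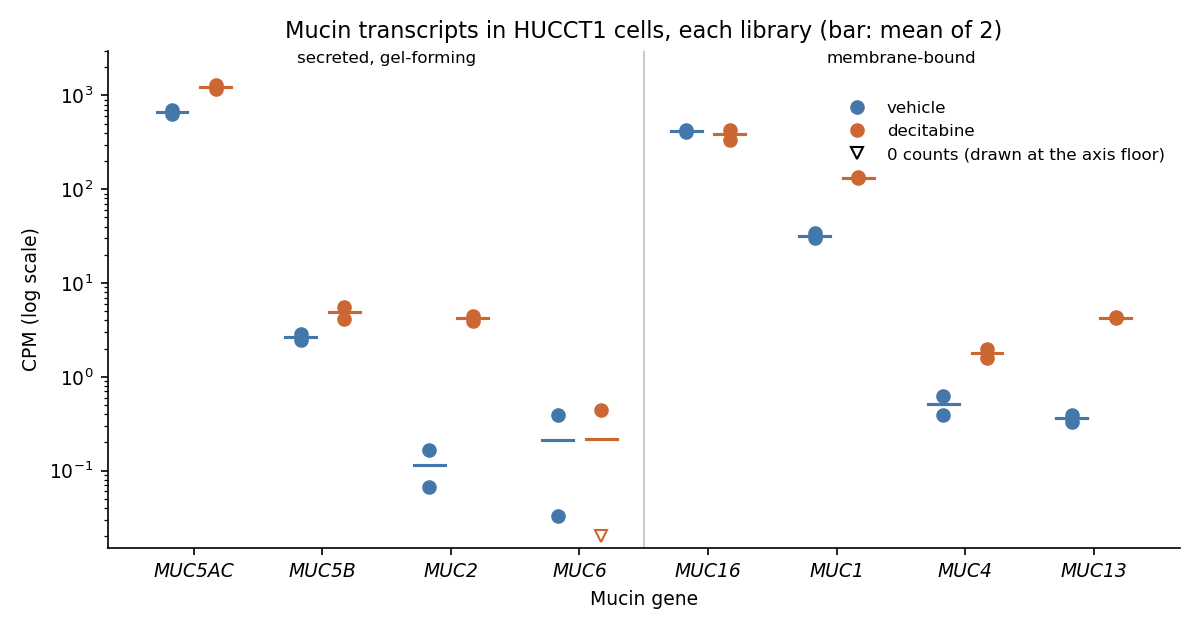
CPM of 8 mucin genes in each HUCCT1 library (points, log scale) after vehicle or decitabine, with bars at the mean of the 2 libraries and open triangles for libraries at 0 counts. Treated libraries lie above vehicle libraries for MUC5AC, MUC5B, MUC2, MUC1, MUC4 and MUC13, and overlap them for MUC16 and MUC6.

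Markers of other epithelia and cell types moved in the same HUCCT1 libraries, where 19.6% of all genes were higher and 13.9% lower. Of 10 biliary markers 1 was higher and 7 were lower after decitabine, and their summed level went from 15686 and 17603 CPM to 9872 and 11313 CPM. Of 6 gastric mucous markers tested, 5 were higher and 1 lower, and the list summed to 5.80 and 5.85 CPM in vehicle against 12.03 and 10.4 CPM. Of 6 intestinal markers 3 could be tested and 2 of them, CDX1 and CDX2, were higher, while VIL1 was not called, LGALS4, CDH17 and FABP1 were too low to test, and the list had a summed level of 1.09 and 1.36 against 2.56 and 3.01 CPM. All 5 endothelial markers were higher, from summed levels of 5.74 and 4.30 CPM to 28.1 and 29.1 CPM, as were 4 of the 5 squamous markers tested (8.93 and 7.94 to 45.0 and 45.1 CPM) and 4 of the 5 fibroblast markers tested (37.4 and 37.8 to 169 and 199 CPM), with 1 fibroblast marker lower. Of 8 leukocyte markers 2 were tested and 1 was higher, with sums of 3.07 and 3.24 against 5.19 and 5.58 CPM. The single hepatocyte marker tested of 6 was higher. Of the markers called higher, both intestinal ones, 3 of the 5 gastric mucous, 3 of the 5 endothelial, 2 of the 4 fibroblast, 1 of the 4 squamous and the leukocyte one would not have passed the filter without the treated libraries, so their counts are not independent of their rise. The part of these shifts in the mucin values was not tested, and in bulk RNA more cells with a transcript and more of it per cell cannot be told apart.

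The mucin O-glycosylation genes moved in HUCCT1 in both directions. Of 33 O-glycosylation enzymes, which add the sugar chains, 29 were tested, with 6 higher and 9 lower and a median log2 fold change of -0.11. Over all genes tested, 19.6% were higher and 13.9% lower. GCNT3, the mucin-type core branching enzyme, rose (log2 2.75 ± 0.32, adjusted p = 1.57e-07), as did the sialyltransferases ST3GAL1 (log2 2.01 ± 0.11, adjusted p = 1.60e-13) and ST6GALNAC1 (log2 1.26 ± 0.20, adjusted p = 2.35e-05). GALNT10, one of the enzymes that add the initial sugar, fell by 1.06 on the log2 scale (adjusted p = 2.07e-08).

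Of 21 partners in folding, packaging and the mucus layer, 16 were tested. Where 19.6% of all genes were higher and 13.9% lower, 7 of these were higher and none lower, with a median of 0.44. Of the 7, CFTR, TFF1, TFF2 and ZG16 would not have passed the filter without the treated libraries, and the median of the 12 tested genes that would was 0.32. FCGBP, a mucus-layer protein secreted with MUC2, went from 4.12 and 3.74 CPM to 37.9 and 43.3 CPM (log2 3.36 ± 0.15, adjusted p = 2.32e-15). The chloride and bicarbonate channel gene CFTR rose from 4 and 9 counts to 100 and 78 (log2 3.71 ± 0.39, adjusted p = 4.08e-08), and the trefoil peptide gene TFF2 from 5 and 4 counts to 32 and 26 (log2 2.62 ± 0.55, adjusted p = 5.50e-04). ZG16, a goblet-cell lectin, had 3 and 0 counts in vehicle and 11 and 20 after decitabine (adjusted p = 0.00496).

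Of 23 transcription factors of mucous and gut lineages, 18 were tested, with 8 higher, 1 lower and a median of 0.31. The shares over all genes were again 19.6% higher and 13.9% lower. SOX17, a factor of endoderm and bile duct development, went from 24 and 22 counts to 799 and 1004 (log2 5.26 ± 0.21, adjusted p = 2.58e-16). The intestinal factor gene CDX1 went from 0 in both vehicle libraries to 11 and 18 counts (adjusted p = 3.38e-04), and CDX2 from 7 and 12 to 33 and 32 (log2 1.73 ± 0.46, adjusted p = 0.00502). CREB3L1, a factor of the secretory pathway, rose by 1.79 ± 0.14 (adjusted p = 2.87e-10). CDX1 and CDX2 would not have passed the filter without the treated libraries, and the median of the other 16 genes tested was 0.23.

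Among 14 other mucins and mucin-like proteins, 5 were tested and MCAM alone was called, from 7.22 and 9.59 to 71.2 and 70.5 CPM (log2 3.07 ± 0.14, adjusted p = 3.38e-15). All 16 binding partners of membrane mucins were tested. Where 19.6% of all genes were higher and 13.9% lower, 5 of them were higher and 3 lower, with a median of -0.08. Of the 5, 2 would not have passed the filter without the treated libraries, SELE among them, and the median of the other 14 genes was -0.21. ICAM1, a ligand of MUC1, rose by 2.93 ± 0.11 on the log2 scale (adjusted p = 1.56e-16). The selectin gene SELE went from 2 and 1 counts to 28 and 23 (adjusted p = 9.50e-05). LGALS1, a galectin gene, fell by 0.56 (adjusted p = 1.88e-04).

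The nearest protein-coding genes that lie outside the mucin set and overlap none of it were compared to see whether the mucin loci moved with their surroundings in HUCCT1. TRIM46, which ends 853 bp from MUC1, rose by 2.22 ± 0.35 on the log2 scale (adjusted p = 1.43e-05), from 0.396 and 0.595 to 2.16 and 2.53 CPM. THBS3, 2672 bp away on the other side, gave -0.30 ± 0.14 (adjusted p = 0.115). Beside MUC13, HEG1 rose by 0.89 ± 0.11 (adjusted p = 4.80e-07) and ITGB5 fell by 0.40 ± 0.11 (adjusted p = 0.0044). Beside MUC4, APOD, too low in vehicle to pass the filter without the treated libraries, went from 1 and 0 counts to 15 and 21 (adjusted p = 2.98e-04), and TNK2 rose by 0.42 ± 0.12 (adjusted p = 0.00741). The gel-forming cluster on chromosome 11 is flanked by AP2A2 and TOLLIP. AP2A2 was not called (adjusted p = 0.395), and its vehicle libraries differed widely, at 6.03 and 17.9 CPM. TOLLIP was not called either, at a log2 fold change of 0.10 ± 0.11 (adjusted p = 0.518).

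In EGI-1 the pattern centred on MUC5AC and MUC5B, which were lower where talazoparib was present. MUC5AC stood at 24.0 and 23.1 CPM in vehicle, 17.2 and 28.9 CPM after decitabine, 11.9 and 9.68 CPM after talazoparib, and 11.1 and 8.96 CPM after the combination. All 4 libraries with talazoparib lay below all 4 without it. MUC5B stood at 4.33 and 5.15 CPM in vehicle, 4.39 and 6.72 CPM after decitabine, 3.55 and 2.35 CPM after talazoparib, and 2.74 and 2.04 CPM after the combination. Here too no library with talazoparib reached the level of one without it. This pooled split was not tested, and talazoparib on its own called neither gene. Summed over the 4 gel-forming genes, the libraries without talazoparib held 21.8 to 35.7 CPM and those with it 11.1 to 15.6 CPM.

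Against vehicle, the combination called both of them lower, 2 of the 10 members, with 6 tested and none higher. Of 22406 genes tested, 18.7% were called, 11.1% higher and 7.61% lower. The median log2 fold change was 0.12 over the 6 members and -0.02 over all genes. MUC5AC fell by 1.24 ± 0.25 on the log2 scale (2.37-fold lower, adjusted p = 0.0155), and MUC5B fell by 1.00 ± 0.25 (2.01-fold lower, adjusted p = 0.00886). The adjusted p depended on single libraries more than the fold change did. Without combination replicate 2, the library with leukocyte transcripts, MUC5AC gave -1.09 (adjusted p = 0.125) and MUC5B -0.79 (adjusted p = 0.117). Without vehicle replicate 2 they gave -1.27 (adjusted p = 0.0997) and -0.88 (adjusted p = 0.107). MUC5AC also lost its call without vehicle replicate 1 (-1.22, adjusted p = 0.117) or combination replicate 1 (-1.40, adjusted p = 0.0644), while MUC5B kept it there. Without 1 or the other talazoparib library, which the comparison does not include, MUC5AC gave -1.24 and -1.25 at adjusted p of 0.0532 and 0.0525, and with 1 decitabine library left out its adjusted p fell to as low as 5.54e-09. The sign was negative for both genes in every alternative.

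The other 4 members tested in EGI-1 were not called after the combination. MUC13 stood at 0.886 and 0.792 CPM in vehicle and 1.02 and 1.78 CPM after the combination (log2 0.74, 95% confidence interval 0.01 to 1.47, adjusted p = 0.154), its highest value coming from combination replicate 2, without which the log2 difference was 0.28. MUC1 stood at 16.6 and 19.97 against 22.3 and 20.6 CPM (log2 0.22, interval -0.60 to 1.05, adjusted p = 0.71), or log2 0.28 without that library. MUC4 stood at 10.0 and 14.4 against 16.4 and 11.9 CPM (log2 0.20, interval -0.24 to 0.63, adjusted p = 0.551), or log2 0.42 without it (adjusted p = 0.193). MUC16 stood at 151 and 173 against 182 and 154 CPM (log2 0.04, interval -0.12 to 0.21, adjusted p = 0.766), or log2 0.16 without it (adjusted p = 0.243). The MUC16 interval from all libraries is narrow enough that a change of the size fitted for MUC5AC or MUC5B lies outside it.

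**Figure D3:**
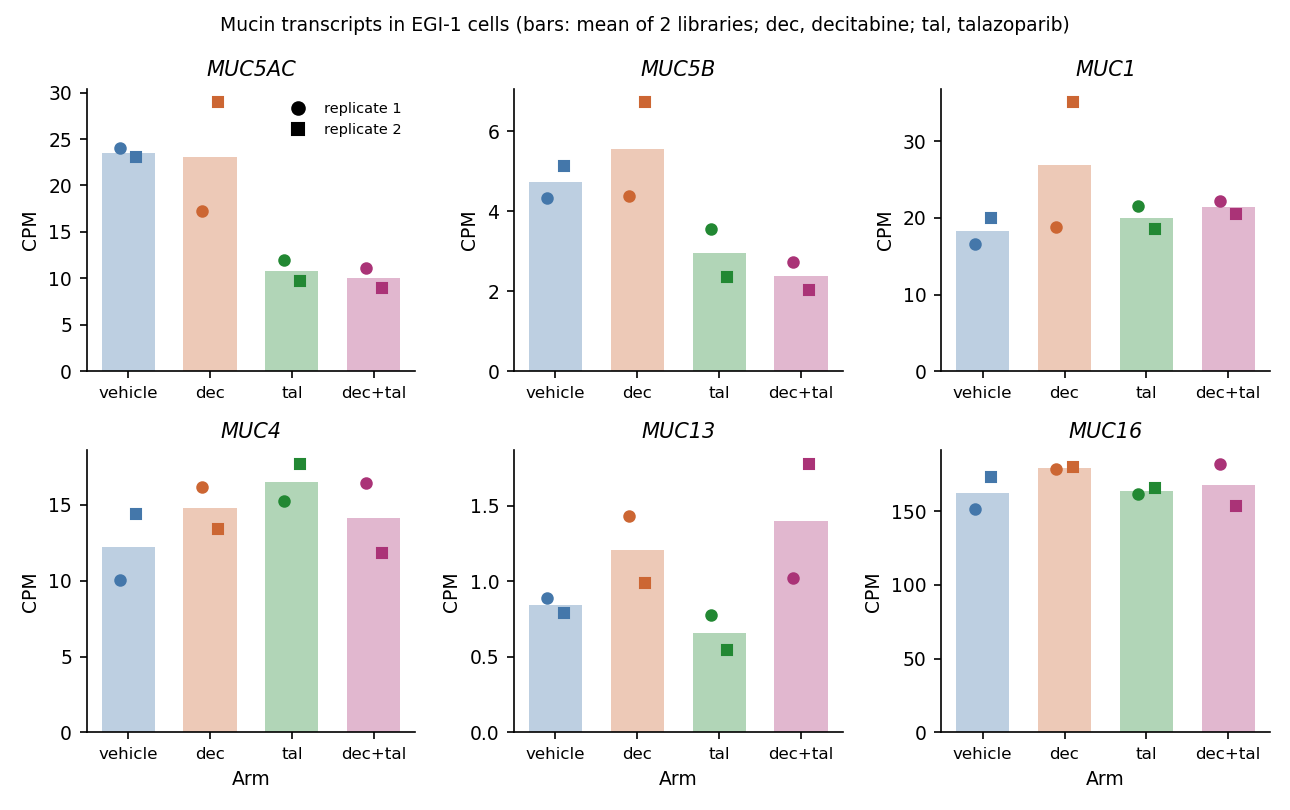
CPM of 6 mucin genes in the 4 EGI-1 arms, with a bar at the mean and a point for each of the 2 libraries, on axes that start at 0. MUC5AC and MUC5B are lower in the 4 libraries with talazoparib, and the MUC1 bar after decitabine is raised by replicate 2.

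Talazoparib on its own called no member, where 4.12% of genes were called. MUC5AC gave -1.13 ± 0.25 (95% confidence interval -1.72 to -0.54, adjusted p = 0.0632) and MUC5B -0.70 ± 0.24 (interval -1.21 to -0.19, adjusted p = 0.13). MUC4 stood at 15.3 and 17.7 CPM against 10.0 and 14.4 in vehicle (log2 0.44, adjusted p = 0.292). These 3 genes had an unadjusted p under 0.05 in edgeR, as did 3572 of the 22406 genes tested. DESeq2 called MUC5AC (adjusted p = 0.00683). A fit of the 4 libraries of the arms compared called 1133 of 21278 genes higher and 718 lower. Among the latter were MUC5AC (adjusted p = 4.16e-07) and MUC5B (adjusted p = 0.0297). Leaving out either decitabine library, which holds no talazoparib, also brought both under the threshold, and with no filter on low counts MUC5AC, MUC5B and MUC4 (log2 0.45, adjusted p = 0.0074) were all called. MUC1 (21.6 and 18.5 CPM), MUC13 (0.775 and 0.544 CPM) and MUC16 (161.7 and 165.7 CPM) gave adjusted p of 0.903, 0.707 and 0.957.

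Decitabine on its own called no member in EGI-1 either, where 0.544% of genes were called. No member had an unadjusted p under 0.05 in edgeR, where 2048 of 22406 genes did. DESeq2 also called none. MUC5AC was spread from 17.2 to 28.9 CPM around its vehicle level (log2 -0.03, 95% confidence interval -0.59 to 0.54). MUC1 stood at 18.8 and 35.1 CPM (log2 0.56, interval -0.25 to 1.38, adjusted p = 0.703), and without decitabine replicate 1 it was called at log2 0.95 (adjusted p = 2.28e-05), while without replicate 2 no call was made. MUC5B gave 0.23 (interval -0.25 to 0.71), MUC4 0.29 (interval -0.14 to 0.72, at 16.2 and 13.4 CPM), MUC13 0.53 (interval -0.21 to 1.27, at 1.43 and 0.987 CPM) and MUC16 0.15 (interval -0.01 to 0.32, at 178 and 180 CPM).

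Against decitabine, the combination called MUC5AC and MUC5B lower, 2 of the 10 members, where 7.68% of genes were called. MUC5AC gave -1.22 ± 0.25 (adjusted p = 0.0337) and MUC5B -1.24 ± 0.25 (adjusted p = 0.00432). Without combination replicate 2 both calls were lost, at -1.06 (adjusted p = 0.207) and -1.03 (adjusted p = 0.0809). MUC5AC also lost its call without combination replicate 1 (-1.38, adjusted p = 0.123), either vehicle library (adjusted p of 0.105 and 0.101) or either talazoparib library (adjusted p of 0.101 each), with -1.22 in all 4 of the last. MUC1 gave -0.34 with all libraries (adjusted p = 0.619). It gave -0.73 without decitabine replicate 1 and 0.18 without decitabine replicate 2. For MUC1, MUC4, MUC13 and MUC16 the libraries of the 2 arms overlapped.

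Against talazoparib, the combination called no member, where 1.92% of genes were called. MUC5AC gave -0.11 (95% confidence interval -0.75 to 0.52) and MUC5B -0.30 (interval -0.85 to 0.25), or 0.04 and -0.09 without combination replicate 2. MUC13 gave 1.12 ± 0.36 (adjusted p = 0.146), or 0.65 without combination replicate 2. It was the only member with an unadjusted p under 0.05 in edgeR, where 2977 of 22406 genes had one. DESeq2 called no member. The test of whether the combination departed from the added effects of its 2 drugs called no member, where 0.161% of genes were called. No member had an unadjusted p under 0.05 in edgeR, where 757 of 22406 genes did, or a call in DESeq2. The departure was -0.09 for MUC5AC (interval -0.93 to 0.76) and -0.54 for MUC5B (interval -1.26 to 0.19), or 0.07 and -0.32 without combination replicate 2. For MUC1 it was -0.47 (interval -1.63 to 0.68). The MUC1 value was -0.86 without decitabine replicate 1 and 0.05 without decitabine replicate 2.

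**Figure D4:**
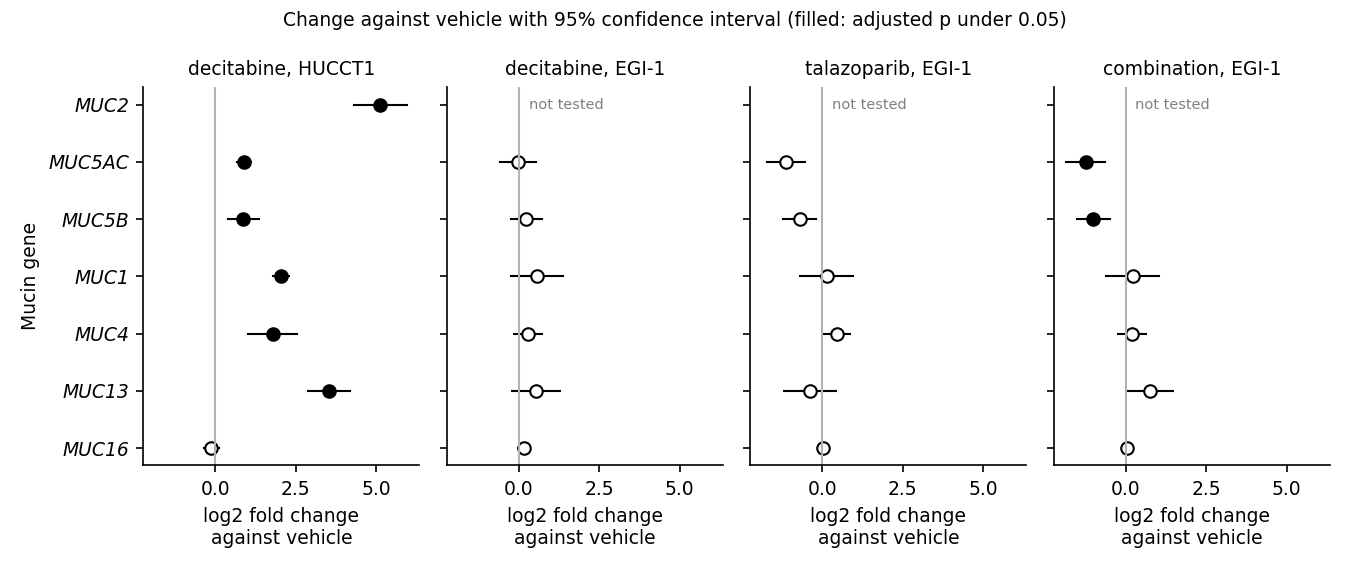
Log2 fold change against vehicle (points) with 95% confidence interval (lines) for 7 mucin genes in HUCCT1 after decitabine and in EGI-1 after decitabine, talazoparib and the combination, with filled points for adjusted p under 0.05. All filled points in HUCCT1 lie right of 0, and the filled points in EGI-1 are MUC5AC and MUC5B after the combination, left of 0.

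The decitabine effect was larger in HUCCT1 than in EGI-1 for 4 of the 10 members, or 4 of the 8 tested, where 15.9% of the 25096 genes tested had different effects. MUC2 differed by 4.65 ± 1.02 on the log2 scale (adjusted p = 0.00288), MUC13 by 3.02 ± 0.48 (adjusted p = 1.30e-04), MUC4 by 1.51 ± 0.39 (adjusted p = 0.0101) and MUC1 by 1.49 ± 0.36 (adjusted p = 0.0295). MUC2 passed the filter only through the HUCCT1 decitabine libraries and rested on 2 to 5 counts per library in EGI-1. MUC5AC (0.92, 95% confidence interval 0.20 to 1.63, adjusted p = 0.0917), MUC5B (0.65, interval -0.05 to 1.35, adjusted p = 0.22) and MUC16 (-0.26, interval -0.55 to 0.03, adjusted p = 0.239) did not pass. MUC5AC passed without either EGI-1 decitabine library, at 0.58 (adjusted p = 0.0147) and 1.33 (adjusted p = 3.20e-06). MUC16 passed without HUCCT1 decitabine replicate 1, at -0.44 (adjusted p = 0.0264), or with no filter on low counts, at -0.33 (adjusted p = 0.044). The median was 1.20 over the 6 members other than MUC2 and MUC6 and 0.03 over all genes. The MUC1 call was lost without any of 10 single libraries (adjusted p up to 0.124), MUC4 without HUCCT1 vehicle replicate 1 (adjusted p = 0.121) or HUCCT1 decitabine replicate 1 (adjusted p = 0.0664), and MUC2 without EGI-1 vehicle replicate 1 (adjusted p = 0.0624). MUC13 kept its call throughout. The dose in HUCCT1 was 1 µM and in EGI-1 0.5 µM, so these differences compare the treatments as given.

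The lists of mucin-related genes gave a mixed picture in EGI-1 after the combination. Of the 33 O-glycosylation enzymes 27 were tested, with 7 higher, 2 lower and a median log2 fold change of 0.04. Over all genes tested, 11.1% were higher and 7.61% lower. GALNT5 rose (log2 0.89 ± 0.06, adjusted p = 3.24e-08), ST6GALNAC1 rose (1.08 ± 0.30, adjusted p = 0.0167), and GALNT9 fell by 1.09 ± 0.22 (adjusted p = 0.00227). GCNT4 was called higher (adjusted p = 0.00221), but its libraries held 3 and 5 counts in vehicle and 13 and 54 after the combination, the higher value from replicate 2. Without combination replicate 2 the list had 5 higher and 2 lower, and GCNT4 (log2 1.91, adjusted p = 0.12) and ST6GALNAC1 (log2 1.17, adjusted p = 0.0503) lost their calls.

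Of the 21 folding, packaging and mucus-layer partners 14 were tested, with 4 higher, 3 lower and a median of 0.01. The shares over all genes were again 11.1% higher and 7.61% lower. TFF2 rose (1.54 ± 0.40, adjusted p = 0.0111), and so did ZG16B (1.12 ± 0.32, adjusted p = 0.0185). Both were low in vehicle, at 0.612 to 0.755 and 0.720 to 0.985 CPM. FCGBP fell by 1.13 ± 0.30 (adjusted p = 0.0161), at 4.70 and 5.43 CPM in vehicle, 1.59 and 1.15 CPM after talazoparib and 1.47 and 3.09 CPM after the combination. ERN2, the stress sensor of mucous cells, fell by 0.91 ± 0.31 (adjusted p = 0.0466). Without combination replicate 2 the list had 4 higher and 2 lower, ERN2 lost its call (log2 -0.61, adjusted p = 0.326), and FCGBP gave -1.78 (adjusted p = 0.00194).

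Of the 23 lineage factors 16 were tested, with 6 higher and 4 lower, where 11.1% of all genes were higher and 7.61% lower. A gene that was not called would not have passed the filter without the combination libraries, and the median of the other 15 was 0.27. CREB3L1 (2.12 ± 0.45, adjusted p = 0.00292), FOXA3 (1.12 ± 0.30, adjusted p = 0.0132) and the duct factor gene SOX9 (0.93 ± 0.06, adjusted p = 7.39e-09) rose. CREB3L1 and FOXA3 were low, at 0.164 to 0.360 and 0.657 to 1.01 CPM in vehicle. After the combination they stood at 0.955 to 1.35 and 1.61 to 2.04 CPM. The epithelial factor gene ELF3 fell by 0.75 ± 0.09 (adjusted p = 4.35e-05). Without combination replicate 2 the list had 5 higher and 2 lower. Of the other mucins, 4 were tested and MCAM (1.07 ± 0.06, adjusted p = 1.04e-09) and PODXL (0.28 ± 0.05, adjusted p = 8.58e-04) rose, with a list median of 0.23 and both called again without that library. Of the 16 binding partners 14 were tested, with 5 higher, 2 lower and a median of 0.15, and 4 higher and 1 lower without that library. ICAM1 rose by 1.01 ± 0.08 (adjusted p = 1.10e-07), MSLN, the binding partner of MUC16, by 0.38 ± 0.10 (adjusted p = 0.0153), LGALS3 by 0.30 ± 0.09 (adjusted p = 0.0206) and JUP by 0.25 ± 0.06 (adjusted p = 0.00539), of which LGALS3 lost its call without that library (log2 0.33, adjusted p = 0.0744). Over all genes 1618 were higher and 905 lower without combination replicate 2.

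Marker lists were also read in EGI-1 after the combination, where 11.1% of all genes were higher and 7.61% lower. Of 10 biliary markers 3 were higher and none lower, with sums of 9059 and 9081 CPM in vehicle against 10048 and 9938 CPM. The gastric mucous list had 1 of 3 tested higher (1.71 and 1.26 against 2.86 and 2.90 CPM), and the intestinal list had 1 of 3 lower (5.61 and 6.15 against 5.56 and 6.19 CPM). The squamous list had 2 of 3 higher (43.996 and 41.7 against 44.3 and 42.5 CPM), the endothelial list 2 of 3 (19.8 and 21.2 against 28.7 and 30.0 CPM), and the fibroblast list its 1 tested marker (30.5 and 28.7 against 49.9 and 43.0 CPM). Of the leukocyte list 1 of 2 was higher, while the 1 hepatocyte marker tested was not called. Without combination replicate 2 none of the leukocyte or intestinal markers tested was called and 1 of 3 endothelial markers was higher, while the biliary, gastric mucous, squamous, fibroblast and hepatocyte counts of higher and lower markers stayed the same. Their part in the mucin values was not tested.

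Beside the EGI-1 cluster, TOLLIP rose by 0.29 ± 0.07 after the combination (adjusted p = 0.00821), opposite in sign to MUC5B 12199 bp away, and AP2A2 gave 0.01 ± 0.21 (adjusted p = 0.9754). The genes whose log2 CPM ran most like MUC5AC over the 8 EGI-1 libraries were drawn from 13708 genes whose mean log2 CPM was 1 or higher. They were TJP3 (Pearson r = 0.989), TSKU (0.984) and CHD3 (0.982). For MUC5B they were RGS12 (0.988), TIMP4 (0.986) and IGFBP6 (0.981). These correlations describe 8 libraries that share arms, and were the highest of 13708.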

How the data were processed

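RNA-seq count data of 12 libraries were used. The authors deposited 1 table of raw read counts per gene (whole counts, not normalised). Per the labels, the submitters' processing notes name fastp, Trim Galore, HISAT2, featureCounts and GRCh38. The study's methods, written for EGI-1, name other aligning and counting tools, so the counter behind the table is uncertain, and the annotation, strand setting and handling of multiply mapped reads were not given in the sources used here. The library names of the talazoparib arm carry T50, whereas the labels give 200 nM, which was used.

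Genes were tested with edgeR 4.0.16 (R 4.3.3): filterByExpr by arm, TMM scaling, robust quasi-likelihood fit and Benjamini-Hochberg adjusted p under 0.05. The 8 EGI-1 libraries were fitted together (22406 genes), the 4 HUCCT1 libraries apart (22479), and all 12 jointly for the comparisons between lines (25096). Changes are log2 fold changes with standard error (SE) and 95% confidence interval. Printed CPM are counts scaled with the joint TMM factors (0.866 to 1.06), and CPM per kb divide them by the merged exon length of GENCODE 44. The procedure was tested on simulated counts. Alternatives were other scalings (RLE, upper quartile), no filter, DESeq2 1.42.0, a replicate block, leaving out each library, and fitting only the arms compared. The members and gene lists were chosen with earlier results of these data known. Besides the members, the genes named were up to 4 called genes per list with the largest change, the 3 genes most correlated with each member called after the combination, and the nearest protein-coding neighbours of called members. Marker genes named outside this rule, PTPRC, CD3E and the intestinal markers among them, were chosen after their values were seen. Some genes that the rule names are not reported here.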

Additional observations from a re-analysis of the deposited data

Results flagged for a closer look

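The effect of decitabine against vehicle differed between HUCCT1 and EGI-1 for 4 of the 8 mucin genes tested. This was the interaction term of the joint edgeR fit, which called 15.9% of the 25096 genes tested. The difference of the log2 fold changes, HUCCT1 minus EGI-1, was 3.02 for MUC13, 1.51 for MUC4, 1.49 for MUC1 and 4.65 for MUC2. MUC2 passed the low-count filter only through the HUCCT1 decitabine libraries, so its call is not independent of its rise there. The MUC1 call was lost on leaving out any of 10 single libraries. All 4 were called higher after decitabine in HUCCT1, where 19.6% of the genes tested were higher. MUC13, like MUC2, passed the filter there only through the treated libraries. In EGI-1 the libraries of the 2 arms overlapped for MUC1 and MUC4, and for MUC2, which was not tested in EGI-1 alone, they held 2 to 5 counts. MUC13 was higher in both treated EGI-1 libraries without passing the test. The doses were 1 µM in HUCCT1 and 0.5 µM in EGI-1, and line, dose and medium cannot be told apart.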

How the results depend on the processing

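No value changed sign among called mucin genes under any alternative. After decitabine in HUCCT1 the number of mucin genes called was 6, and 5 to 6 with 1 library left out. After the combination in EGI-1 it was 2 against vehicle and 0 to 2 with 1 library left out. It was 0 without vehicle replicate 2 or combination replicate 2. For the combination against decitabine it was 2, and 0 to 3 with 1 library left out. It was 1 with a replicate block by the series of library names, where MUC5AC gave -1.21 (adjusted p = 0.0592), and 1 with only the 4 libraries of the arms compared. For talazoparib it was 0, with 3 without the filter, 1 in DESeq2, 2 with only the 4 libraries compared and 0 to 2 with 1 library left out. For decitabine in EGI-1, and for the departure from summed effects, it was 0, and 0 to 1 with 1 library left out. Between the vehicle arms of the lines it was 6, and 4 to 6 with 1 library left out. For the difference in decitabine effect it was 4, and 2 to 5 with 1 library left out, with 2 without HUCCT1 vehicle replicate 1 or EGI-1 vehicle replicate 1. Calls over all genes also fell in the combination against vehicle without EGI-1 vehicle replicate 2 or combination replicate 2. For talazoparib they went from 635 higher and 288 lower to 1133 and 718 with only the 4 libraries compared. Without the filter they were 860 and 429, and in DESeq2 635 and 279. For the combination against decitabine they went from 990 and 730 to 606 and 357 with only the 4 libraries compared. The cause of these moves was not tested.

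A replicate block by the number in the titles left 2 calls after the combination against vehicle, 2 against decitabine and 6 after decitabine in HUCCT1, and called MUC6 between the lines (adjusted p = 0.0383). Same-numbered EGI-1 libraries deviated together with correlations of -0.27 to 0.20, so the numbers did not pair the EGI-1 samples. In HUCCT1 the correlation was 0.29 over 1 pair of arms, too few to decide, and the block moved the calls over all genes there from 4404 higher and 3121 lower to 5488 and 4648. DESeq2 did not call MUC13 between the lines (adjusted p = 0.0621). Upper-quartile scaling moved the median of all genes between the vehicle arms by -0.12 on the log2 scale, and 6 mucin genes were called there, as with TMM. Of the single-gene results with 1 library left out, 429 kept their direction and side of the threshold, 43 lost a call, 10 gained one and 29 changed sign without a call. Under the other settings 348 were kept, 3 lost a call, 8 gained one and 2 changed sign without a call. With 2 libraries an arm, MUC2 and MUC6 in EGI-1 and MUC20 and MUC21 in both lines were too low to test.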
